A study of Mus musculus with 15 samples.

Results

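Defa23, Ang4, Lyz1, Reg3b and Reg3g are 5 mouse genes for secreted antimicrobial proteins of the Paneth cell type, and the question was whether their RNA differed between polyps and inflamed mucosa of the colon. They were taken by name: each probe whose gene name on the array, brought up to date through its RefSeq accession, was one of the 5. This gave 6 of the 41174 probes on the array, with 2 probes for Ang4 and 1 for each of the others, and all 5 genes were among the 21302 genes tested. The array carries Defa23 under the old name Defcr23, Lyz1 under Lzp-s and Reg3b under Pap.

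The data were 15 dual-colour arrays from 8 female Swiss Webster mice, 2 mice in each of 4 groups: polypoid tissue of mice given 5-aminosalicylic acid (5-ASA), a drug against gut inflammation given at 75 mg/kg, polypoid tissue of untreated mice, inflamed tissue of mice given 5-ASA, and inflamed tissue of untreated mice. The 5-ASA groups are called treated here, and the series' design text gives vehicle for the others. All 8 mice carried the same injury: azoxymethane, a colon carcinogen, at 7.4 mg/kg, then 3 cycles of 4% dextran sulfate sodium, which damages the colon lining, each of 7 days followed by 21 days of water. Mice were 7 weeks old at the start, 9 weeks at the first cycle and 18 weeks when killed. Laser capture took the areas from 5 µm frozen sections, so a sample held all the cell types of the area captured, and the RNA was amplified before labelling. Uninjured colon was not analysed here, so a level here is set against inflamed mucosa or against the pooled mouse RNA hybridised beside each sample (the reference), never against healthy colon.

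Paneth cells sit at the base of the crypts of the small intestine and release granules of antimicrobial proteins, among them alpha-defensins and lysozyme. The normal mouse colon has none, and Paneth-like cells there are known from chronic injury and from tumours. Reg3 lectins are made more widely, by Paneth cells and by ordinary enterocytes of inflamed or colonised gut, where interleukin-22 acting through the transcription factor STAT3, and bacterial signals acting through MyD88, are known inducers. Angiogenin 4 is made by Paneth and goblet cells of the mouse.

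The samples were checked first against markers of what they should hold. All 8 markers of epithelium of any kind were well above background on every array of both tissues, and none of them passed the test between tissues. Krt8 was saturated on all 15 arrays, Krt18 on all 8 polypoid and 2 inflamed arrays, and Krt19 on 2 polypoid arrays, so these 3 give no firm comparison. The first principal component placed the polypoid samples between -57.9 and -14.2 and the inflamed samples between 28.5 and 50.3. Between 57.3% and 90.8% of probes were well above background in the sample channel, the lowest share on the lone array of treated inflamed replicate 2. The 2 mice of a group were scanned in different sessions: session 1 held inflamed replicate 1 of both arms, session 2 held polypoid replicate 1 of both arms, session 3 held polypoid replicate 2 of both arms with untreated inflamed replicate 2, and session 4 held treated inflamed replicate 2. Tissue and session were thus partly tied together, and within-session values are given where session 3 allows them. The 2 mice of a group thus differed in scan session as well as in the animal, and whether they differed in more is not stated. P-values measure only the spread between these samples, in which mouse and session are mixed.

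Values below are log2 of sample over reference for each mouse, after background correction and loess within each array, with a dye effect per probe, estimated over the arrays of all mice, taken out. Treated inflamed replicate 2 had 1 array and no dye swap, so its value rests on the dye effect seen in the other 7 mice. A value of 0 means equal brightness of sample and reference RNA at that probe, so levels are not set against each other between genes. Differences are polypoid minus inflamed or 5-ASA minus untreated, with their standard error (SE) from a limma fit over the 8 mice. Benjamini-Hochberg adjustment ran over all 21302 genes, and a gene was called at an adjusted p below 0.05.

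Polypoid against inflamed tissue was the comparison in which these genes moved. Defa23 and Reg3g were higher in polypoid tissue and passed the test, by 31.1-fold and 9.49-fold as ratios to the reference and by 88.2-fold and 75.1-fold in the sample channel alone. None of these folds is a measured level: on 3 of 7 inflamed arrays Defa23 was too dim to stand well above background, and Reg3g was saturated on 4 of 8 polypoid arrays. Reg3b, saturated on the same 4, was 9.56-fold higher without passing, Lyz1 was high in every sample of both tissues, and Ang4 did not separate them. In this comparison 5.94% of all genes tested were called, with 3.97% of all genes called higher in polypoid tissue, and 2 of the 5 genes here were called, both higher. For 8.37% of genes all 4 polypoid samples lay above all 4 inflamed samples, which held for the same 2 of the 5.

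**Figure D1:**
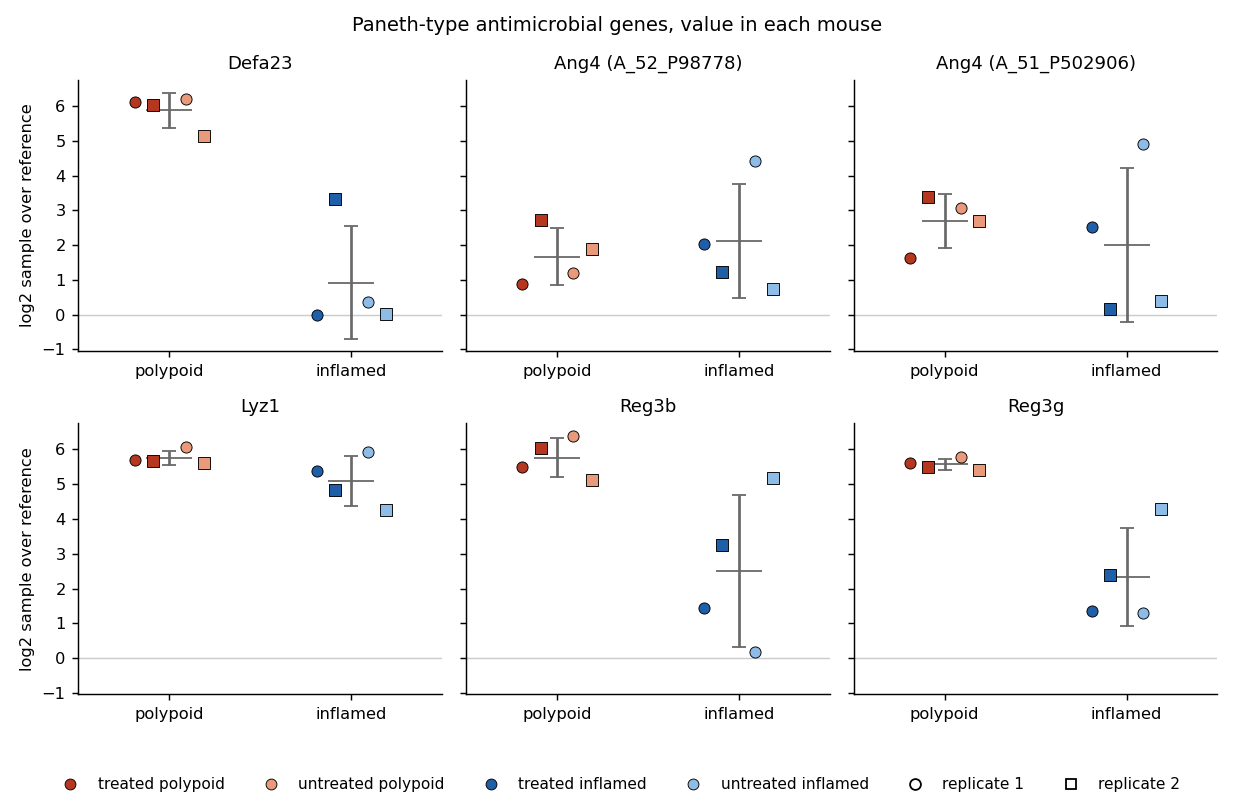
Value of each probe in each mouse (vertical axis, log2 sample over reference), polypoid left and inflamed right. Points are mice, coloured by treatment group and shaped by replicate number, and the bar and whiskers are the mean and SD of the 4 mice of a tissue. Defa23 and Reg3g do not overlap between the tissues, Reg3b does so through untreated inflamed replicate 2, and the 2 Ang4 probes both overlap.

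Defa23 encodes an alpha-defensin, also called a cryptdin, a small peptide that kills bacteria by breaking their membranes. Its values were 6.12 and 6.04 in treated polypoid tissue and 6.21 and 5.14 in untreated polypoid tissue. They were -0.02 and 3.33 in treated inflamed tissue and 0.36 and 0.02 in untreated inflamed tissue. Every polyp was high, 3 of the 4 inflamed samples lay near 0, and treated inflamed replicate 2 lay between. The polypoid samples averaged 5.88 ± 0.50 and the inflamed samples 0.92 ± 1.61 (SD, n = 4 each), a difference of 4.96 ± 0.72 (SE, limma adjusted p = 0.0194). Its probe was well above background in the sample channel on all 8 polypoid arrays and on 4 of 7 inflamed arrays, so the inflamed level rests on dim spots. A gene was tested if every array of 1 group or more stood well above background, and Defa23 met this in the polypoid groups only. The difference was 5.57 within scan session 3. The groups ran in the order treated polypoid (6.08 ± 0.06), untreated polypoid (5.67 ± 0.76), treated inflamed (1.66 ± 2.37) and untreated inflamed (0.19 ± 0.24, SD, n = 2 each), and only the step between the tissues exceeded the spread within groups. The call was lost when treated polypoid replicate 1 or 2 or untreated inflamed replicate 2 was left out (adjusted p = 0.0665, 0.0642 and 0.0570), with a difference of 4.87 to 4.98 in these 3 fits.

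The promoter of Defa23 is shown because the alpha-defensin genes moved together. It was taken from RefSeq (GRCm38.p6, chr8:21054790-21055089, plus strand), 250 bases before to 50 after the start of the gene. Capitals mark CTTTGAT on either strand, a core motif of the TCF factors of the Wnt pathway, and TATAAA, the TATA box.
Defa23: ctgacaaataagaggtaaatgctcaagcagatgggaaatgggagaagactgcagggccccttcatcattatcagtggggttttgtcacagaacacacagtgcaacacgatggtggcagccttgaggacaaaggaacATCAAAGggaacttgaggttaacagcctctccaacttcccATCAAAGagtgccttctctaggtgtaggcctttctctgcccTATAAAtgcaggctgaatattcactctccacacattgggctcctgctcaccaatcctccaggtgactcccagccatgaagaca
CTTTGAT was found at 2 places, both on the opposite strand as ATCAAAG, starting 114 and 74 bases before the start site, and TATAAA was found 33 bases before it. Of 27025 mouse promoters of the same length, 3.78% held CTTTGAT on either strand and 14.2% held TATAAA. Among the 16 promoters of alpha-defensin genes in the same table, Defa23 included, 13 held CTTTGAT and 15 held TATAAA. These genes are close to one another in sequence, so their promoters are not independent and the counts test no enrichment. A match of letters is a description and not a binding site.

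The array held 16 probes named as alpha-defensins, for 13 genes, all tested. Of these 13, Defa23 among them, 8 were called higher in polypoid tissue and none lower, beside 3.97% of all genes called higher. Defa23 and the gene listed as Defcr-rs12 entered the test through the polypoid groups alone, so the filter favoured a higher call for them. Defa1 was higher by 4.46 on the log2 scale (adjusted p = 0.0148), the gene listed as Defcr6 18.8-fold (0.00825), Defa20 16.8-fold (0.0173), the one listed as Defcr4 13.8-fold (0.0304), Defa22 7.51-fold (0.0181), Defa31 6.90-fold (0.00975) and the one listed as Defcr-rs12 5.85-fold (0.00859). These folds rest on dim inflamed spots, since the inflamed arrays with a probe well above background numbered 1 of 7 for Defcr-rs12, 3 of 7 for Defcr6 and Defa22, 4 of 7 for Defa1, 6 of 7 for Defa20 and Defcr4, and 7 of 7 for Defa31. Defcr4 was also saturated on 2 polypoid arrays. The 5 genes nearest to Defa23 over the 8 samples were Defa1, Defa20, Defcr4, Defa22 and Defcr6, with Pearson's r of 0.996, 0.995, 0.993, 0.990 and 0.988 among 21300 genes. Alpha-defensin genes are nearly identical in sequence, so probes may share targets and these are not independent measurements of 8 genes.

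Not all alpha-defensin probes followed Defa23. The genes listed as Defcr-rs2 and Defcr-rs10, cryptdin-related sequences, reached 5.39 and 4.68 in treated inflamed replicate 2, inside the range of their polyps, and were not called (differences of 3.74 and 3.61, adjusted p = 0.0987 and 0.0855). Both were saturated on 4 polypoid arrays, and their reference channel was 2.72 and 2.54 higher in polypoid tissue. In sample brightness the tissues did not overlap: Defcr-rs2 read 18466 scanner units or more in polyps and 6316 or less in inflamed tissue, and Defcr-rs10 read 12909 or more in polyps and 4548 or less in inflamed tissue. Defa29 was high in treated polypoid replicate 2 alone, at 3.35, with every other sample at 0.75 or below. Defa21 stayed between -0.35 and 0.44 in all 8 samples. The 2 Defa3 probes disagreed: the brighter, which was tested, differed by -0.54 (adjusted p = 0.409), and the other by 3.18. In 14 of the 16 probes treated inflamed replicate 2 was above the other inflamed samples. Every polyp lay above all 4 inflamed samples in 9 of the 16, beside 8.37% of all genes tested. With treated inflamed replicate 2 set aside after its values were seen, every polyp lay above the other 3 in 12 of the 16. The share of all genes for that easier comparison was not taken.

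**Figure D2:**
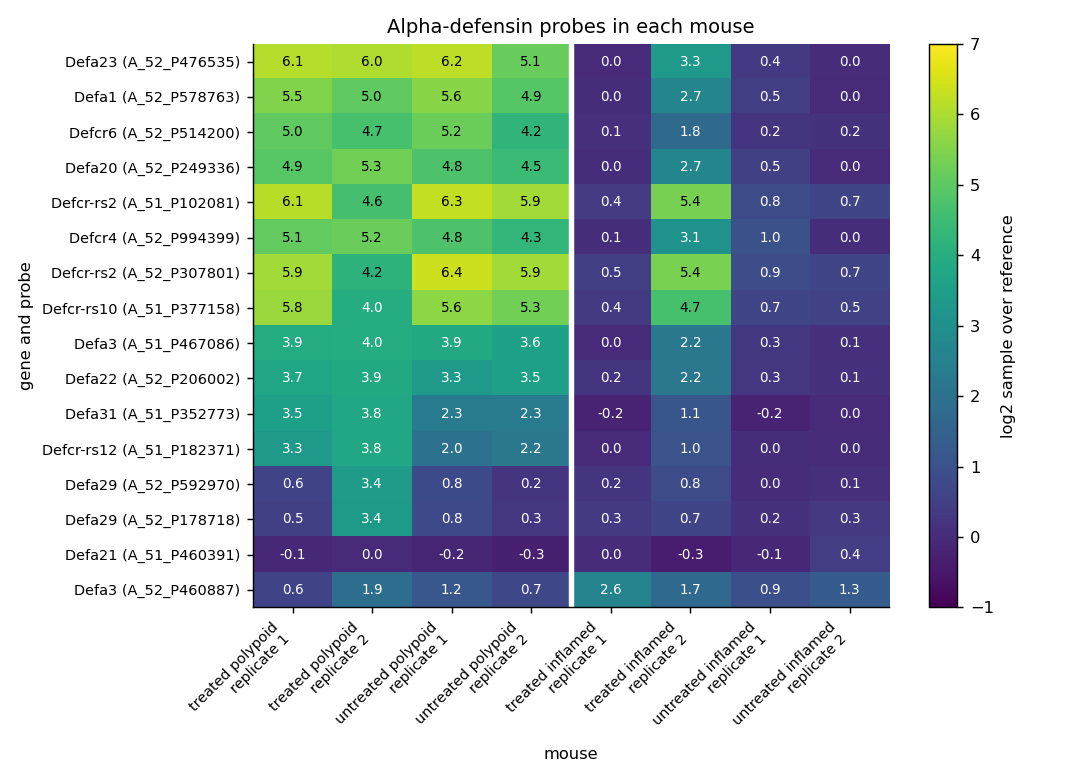
Value of each alpha-defensin probe (rows, sorted by the difference between tissues) in each mouse (columns, polypoid left of the white line, inflamed right), as log2 sample over reference, by colour and printed in each cell. In the upper 12 rows all 4 polyps are above 3 of the inflamed samples, and treated inflamed replicate 2 is intermediate or as high as the polyps. In 9 rows all 4 polyps are above all 4 inflamed samples.

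Among the other Paneth cell genes on a list of 50, 26 were on the array and 25 tested. Of these 25, 7 were higher in polypoid tissue and 1 lower, beside 5.94% of all genes called in either direction. The median difference of the list was 0.22 against -0.02 over all genes, and 4 of the 7 were the alpha-defensins Defa1, Defa20, Defa22 and Defa31. Mmp7, the protease matrilysin that cuts mouse pro-alpha-defensins into active peptides and is also a target of Wnt signalling, was at 3.88 and 4.30 in treated polyps and 4.89 and 4.50 in untreated polyps. It was at 0.13 and 0.96 in treated inflamed tissue and 0.55 and 0.12 in untreated inflamed tissue. Mmp7 thus rose by 3.95 ± 0.23 (SE, adjusted p = 0.00343), a narrower spread than that of Defa23, and it kept the call in each of the 8 fits that left out a mouse. Sox9, a transcription factor needed for Paneth cells to form and also active in crypt progenitors, rose by 1.69 (adjusted p = 0.00846), and Pnliprp2, a lipase, by 2.62 (0.0359). Mptx1, a mucosal pentraxin, was lower by 4.36 as a ratio (adjusted p = 0.0330) and by 6.21 in the sample channel, where it was not called (0.0874). It was saturated on 3 inflamed arrays and well above background on 7 of 8 polypoid arrays, with polyps at 0.13 to 1.49 and inflamed samples at 2.50 to 7.22. Leaving out treated polypoid replicate 2 made the count of 7 a count of 3, and leaving out untreated inflamed replicate 2 made it 4. In fits without 1 mouse, Sox9 was called in 7 of 8, Pnliprp2 in 2 of 8 and Mptx1 in 1 of 8.

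Other genes of the Paneth lineage did not pass. The fate regulator Atoh1 differed by -0.15 (adjusted p = 0.400), Gfi1, which steers secretory cells, by -0.84 (0.391), Xbp1, the regulator of the secretory machinery, by 0.02 (0.973), the bacterial sensor Nod2 by 0.35 (0.466) and the lectin gene Itln1 by 1.07 (0.671). The Wnt receptor Fzd5 differed by -0.93 (0.0736) and the ligand Wnt3 by 1.26 (0.193). Of the 5 Paneth cell markers on the array 4 were tested, and Defa22 and Mmp7 were higher, beside 3.97% of all genes. Without Pla2g2a, which was saturated on 7 of 8 polypoid arrays, the mean over the other 3 ranged from 3.24 to 4.11 in polyps and from 0.07 to 1.93 in inflamed samples. In bulk tissue, more cells of a type and more RNA per cell cannot be told apart.

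**Figure D3:**
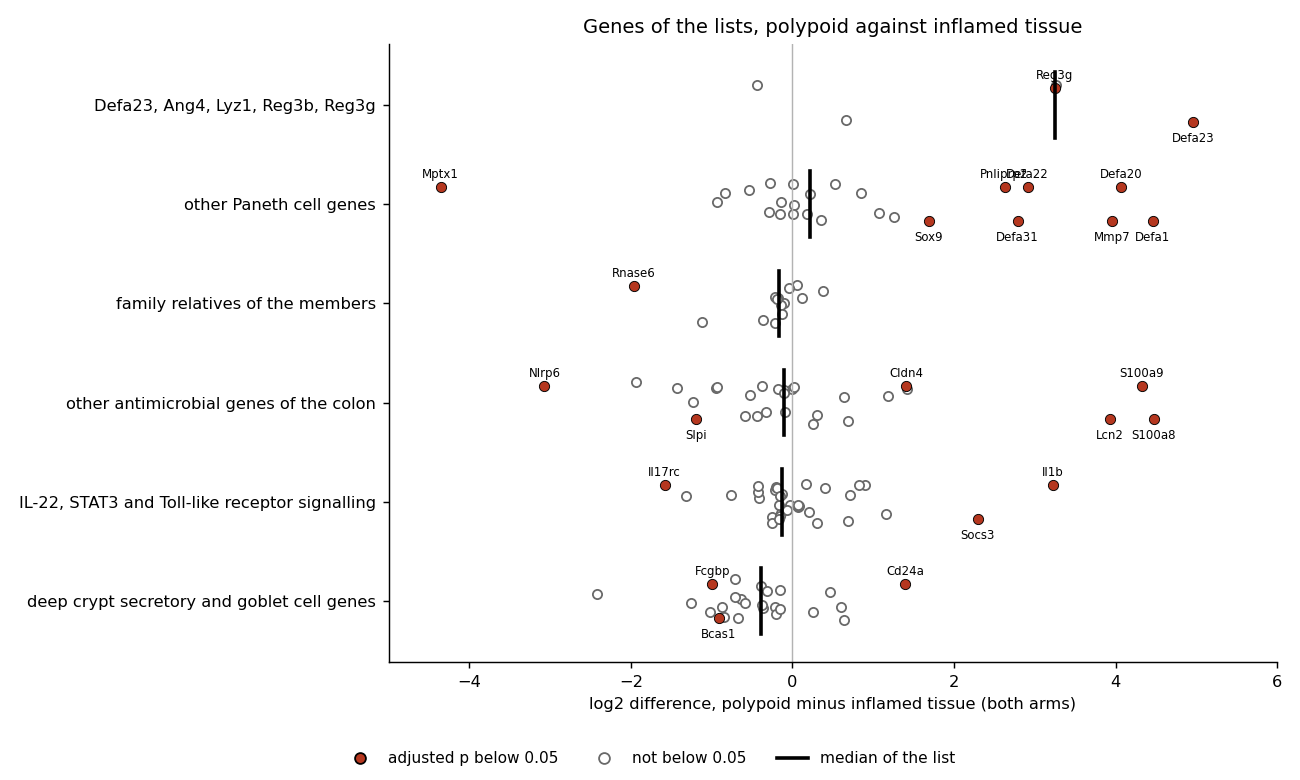
Difference between tissues (horizontal axis, log2, polypoid minus inflamed, both arms) for the 5 genes and for each tested gene of the 5 lists (rows). Filled points have a limma adjusted p below 0.05, open points do not, and the black bar is the median of a list. Defa1, Mmp7, Defa20, Defa22 and Defa31 lie to the right of their list's median of 0.22, while the alpha-defensins Defa3 and Defa21 lie to its left.

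Lyz1 encodes lysozyme P, an enzyme that cuts the bacterial cell wall and the classical stain for Paneth cells. Its values were 5.70 and 5.68 in treated polypoid tissue and 6.06 and 5.60 in untreated polypoid tissue, against 5.38 and 4.84 in treated inflamed tissue and 5.92 and 4.25 in untreated inflamed tissue. It was bright in all 8 mice, well above background on all 15 arrays, and the tissues overlapped through untreated inflamed replicate 1. The polypoid samples averaged 5.76 ± 0.21 and the inflamed samples 5.10 ± 0.72 (SD, n = 4 each), a difference of 0.66 ± 0.38 (SE, adjusted p = 0.358, 95% interval -0.25 to 1.57). Within session 3 it was 1.39. The sample channel alone gave 1.54 (adjusted p = 0.0887). The group means ran in the order untreated polypoid (5.83 ± 0.33), treated polypoid (5.69 ± 0.01), treated inflamed (5.11 ± 0.38) and untreated inflamed (5.09 ± 1.18, SD, n = 2 each). Of the neighbours, the 2 treated groups did not overlap, and the other pairs did. The macrophage lysozyme gene Lyz2 gave no level, since its bright probe was saturated on all 15 arrays. Whether the Lyz1 probe also picks up Lyz2 RNA was not tested, so its brightness may not be that of Lyz1 alone. The 10 macrophage markers had means of 1.29 to 1.79 in polyps and 1.28 to 1.84 in inflamed samples, and none passed.

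Ang4 encodes angiogenin 4, a secreted ribonuclease that kills bacteria. Its brighter probe had values of 0.87 and 2.72 in treated polypoid tissue and 1.18 and 1.88 in untreated polypoid tissue, against 2.04 and 1.23 in treated inflamed tissue and 4.43 and 0.73 in untreated inflamed tissue. The highest and the lowest value both came from untreated inflamed tissue. The difference was -0.44 ± 0.87 (SE, adjusted p = 0.806, 95% interval -2.55 to 1.66). The other probe read 1.62 and 3.38 in treated polyps, 3.08 and 2.70 in untreated polyps, 2.51 and 0.16 in treated inflamed tissue and 4.91 and 0.40 in untreated inflamed tissue, a difference of 0.70 ± 1.09 (adjusted p = 0.761). The probes correlated at r = 0.837 over the 8 samples and had opposite signs, so neither gives Ang4 a direction. The group means of the brighter probe, 1.79 in treated polypoid, 1.53 in untreated polypoid, 1.63 in treated inflamed and 2.58 in untreated inflamed tissue, did not differ beyond their spread.

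Reg3g and Reg3b encode C-type lectins secreted into the gut. Reg3g binds peptidoglycan and kills Gram-positive bacteria, and Reg3b is known for action on Gram-negative ones. Reg3g had values of 5.60 and 5.49 in treated polypoid tissue and 5.79 and 5.41 in untreated polypoid tissue. In treated inflamed tissue it had 1.35 and 2.38, and in untreated inflamed tissue 1.28 and 4.29. The tissues did not overlap. Reg3g was saturated on all arrays of 2 of the 4 polyps, so the spread among the polyps' ratios is not that of their RNA. Polypoid tissue averaged 5.57 ± 0.17 and inflamed tissue 2.33 ± 1.40 (SD, n = 4 each), a difference of 3.25 ± 0.65 (SE, adjusted p = 0.0439). By group the order was untreated polypoid (5.60 ± 0.27), treated polypoid (5.54 ± 0.08), untreated inflamed (2.79 ± 2.13) and treated inflamed (1.87 ± 0.73, SD, n = 2 each), with a step beyond the spread only between the tissues. Within session 3, where the brightest inflamed sample was scanned beside 2 polyps, the difference was 1.16. The call of Reg3g held in 2 of the 8 fits that left out a mouse, without untreated inflamed replicate 1 or 2 (adjusted p of 0.0199 to 0.176 over the 8), and Agilent's own processed signals gave 1.74 (0.109).

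Reg3b had values of 5.50 and 6.03 in treated polypoid tissue and 6.40 and 5.13 in untreated polypoid tissue, against 1.44 and 3.25 in treated inflamed tissue and 0.17 and 5.17 in untreated inflamed tissue. Polyps were high throughout, and untreated inflamed replicate 2 reached the level of the lowest polyp, which alone kept the tissues from separating. The means were 5.77 ± 0.56 in polypoid and 2.51 ± 2.18 in inflamed tissue (SD, n = 4 each), a difference of 3.26 ± 1.11 (SE, adjusted p = 0.150, unadjusted p = 0.0256, 95% interval 0.55 to 5.96). It was 0.41 within session 3 and 4.51 without untreated inflamed replicate 2, a fit in which it was called (adjusted p = 0.0346). The same mouse was the highest inflamed sample for both Reg3 genes. By group Reg3b averaged 5.77 in treated polypoid, 5.77 in untreated polypoid, 2.35 in treated inflamed and 2.67 in untreated inflamed tissue, where the 2 mice stood at opposite ends of the inflamed range. Reg3b was saturated on all arrays of replicate 1 in both polypoid groups, so the polypoid means and their spread are not those of its RNA.

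The Reg3 genes followed each other closely, with r = 0.959 over the 8 samples, and Reg3g ranked 2nd among all 21300 genes in likeness to Reg3b. Both genes were saturated on all arrays of replicate 1 in both polypoid groups, so those ratios are capped. The pairs also share their arrays, so the correlation is a description. The promoters of both are printed because the genes ran together (RefSeq, GRCm38.p6, Reg3b at chr6:78370635-78370934 on the plus strand and Reg3g at chr6:78468825-78469124 on the minus strand). Capitals mark TATAAA and CTTTGAT as above, and TTCNNNGAA, the STAT motif, which reads the same on both strands. No match overlapped another.
Reg3b: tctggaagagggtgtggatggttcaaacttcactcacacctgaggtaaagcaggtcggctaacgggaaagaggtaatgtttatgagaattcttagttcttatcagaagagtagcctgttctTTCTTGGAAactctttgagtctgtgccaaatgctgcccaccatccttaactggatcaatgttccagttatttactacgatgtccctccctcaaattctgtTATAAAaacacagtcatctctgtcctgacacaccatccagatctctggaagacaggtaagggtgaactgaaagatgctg
Reg3g: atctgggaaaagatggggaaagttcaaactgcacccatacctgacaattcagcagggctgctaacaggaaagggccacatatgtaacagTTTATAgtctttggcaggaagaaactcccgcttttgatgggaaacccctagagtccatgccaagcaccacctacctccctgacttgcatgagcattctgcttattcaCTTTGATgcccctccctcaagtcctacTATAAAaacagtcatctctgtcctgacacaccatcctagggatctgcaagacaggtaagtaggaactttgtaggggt
The promoters were 69.9% identical over 296 aligned bases, against 51.1% to 58.2% for the other pairs of the 5 genes. Reg3b held 1 STAT motif, starting 129 bases before the start site, and Reg3g held none in this window, while 8.36% of the 27025 promoters held it. Reg3g held CTTTGAT 54 bases before its start site. Both held TATAAA, 29 and 27 bases before the start, and Reg3g held it a second time on the opposite strand (TTTATA), 161 bases before.

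The other 4 genes stood at varying distance from Reg3g, whose values, like those of Reg3b, include the saturated readings. Over the 8 samples Defa23 correlated with Reg3g at r = 0.816 and with Reg3b at 0.756, where they ranked 1135 and 1806 among all genes. Lyz1 correlated with Reg3b at r = -0.008 and with Defa23 at 0.508. Ang4 ran at r = -0.641 with Reg3b and -0.489 with Reg3g. Genes nearest to Reg3g were Gtf3c6 (r = 0.988), Afp (0.976), Lpar2 (0.970), AI627138 (0.970) and Npat (0.969). The nearest to Reg3b beside Reg3g were Stx16 (0.974), Nlrp4c (0.957), Snrpf (0.955) and Psmc5 (0.948). For Lyz1 they were Med27, Dok1, Ubap2l, Tmem251 and Tma16 at 0.943 to 0.956, and for Ang4 they were Lix1, Mybpc3, C79468, Susd3 and the probe NAP102845-1 at 0.920 to 0.949.

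The scanner readings show what stands behind the ratios. Reg3b and Reg3g were saturated on 4 of 8 polypoid arrays, the 4 of scan session 2, and on no inflamed array, so their brightness in those 2 polyps is a lower limit. Reg3g read 65264 and 41492 scanner units in treated polyps, 65264 and 8906 in untreated polyps, 205 and 385 in treated inflamed tissue and 193 and 1984 in untreated inflamed tissue. The reference channel, which held the same RNA on every array, moved in the same direction: for Reg3g it read 1814 and 896 in treated polyps, 1488 and 241 in untreated polyps, 88 and 88 in treated inflamed tissue and 86 and 136 in untreated inflamed tissue. For Defa23 the reference channel was well above background on all 8 polypoid arrays and on none of the 7 inflamed arrays. The fitted reference-channel difference was 2.98 for Reg3g, 2.53 for Reg3b, 1.51 for Defa23, 0.88 for Lyz1 and -0.15 for Ang4, none with an adjusted p under 0.05, and 0.0282% of genes were called higher in it. With the sample channel alone the differences were larger, 6.46 for Defa23 (adjusted p = 0.0116), 6.23 for Reg3g (0.0168) and 5.78 for Reg3b (0.0598), beside 2.87% of genes called higher. The ratio thus gave smaller differences than the sample channel for these 3 genes, and the cause of the moving reference was not tested.

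**Figure D4:**
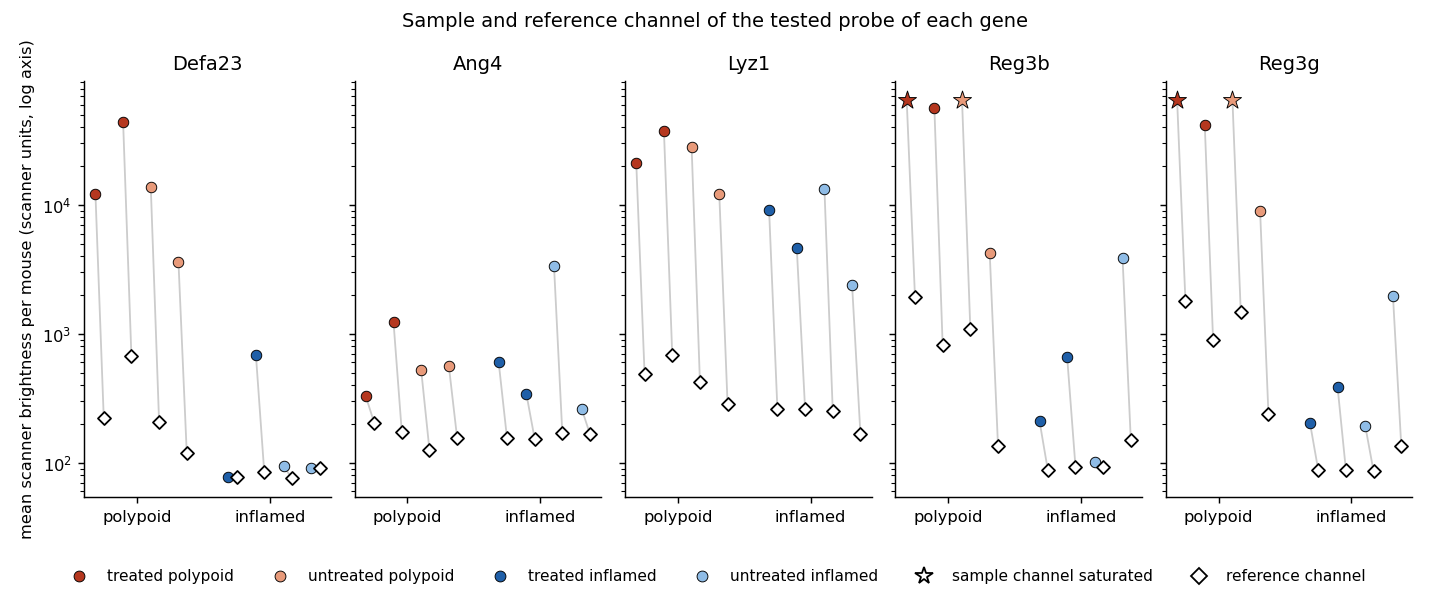
Mean scanner brightness per mouse (log axis, scanner units) of the tested probe of each gene, polypoid mice left and inflamed mice right in each panel. Circles are the sample channel, stars mark mice whose arrays were saturated, and diamonds are the reference channel. The diamonds of Defa23 and Reg3g are higher in every polyp than in any inflamed sample, and those of Reg3b are higher in 3 of the 4 polyps.

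In each arm taken alone, none of the 5 genes passed the test. In mice given 5-ASA the tissue difference was 4.42 for Defa23 (adjusted p = 0.0796), 3.68 for Reg3g (0.0950), 3.42 for Reg3b (0.316), 0.57 for Lyz1 (0.666) and 0.16 for Ang4 (0.972), and 0 of the 5 were called beside 3.06% of all genes. In untreated mice it was 5.49 for Defa23 (0.137), 2.81 for Reg3g (0.305), 3.10 for Reg3b (0.483), 0.75 for Lyz1 (0.602) and -1.05 for Ang4 (0.750), and 0 of the 5 were called beside 0.164% of all genes. At an unadjusted p under 0.05, 2 of the 5 passed in each arm, Defa23 and Reg3g, beside 4074 of the 21302 genes in mice given 5-ASA and 2694 in untreated mice.

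The comparison of 5-ASA with no treatment asked whether the drug moved these genes in either tissue. None of the 5 was called in both tissues together, in polypoid tissue, in inflamed tissue or in the difference of the effect between tissues, where 0% of all genes were called by limma. None of the 5 had an unadjusted p under 0.05 there, while 1361, 1655, 934 and 1273 of all genes did in these 4 comparisons. Over both tissues the difference was 0.94 ± 0.72 for Defa23, -0.34 ± 0.87 for Ang4, -0.06 ± 0.38 for Lyz1, -0.16 ± 1.11 for Reg3b and -0.49 ± 0.65 for Reg3g (SE, adjusted p between 0.882 and 0.991). The 95% interval was -0.81 to 2.68 for Defa23, -0.97 to 0.85 for Lyz1, -2.87 to 2.54 for Reg3b, -2.07 to 1.1 for Reg3g and -2.45 to 1.76 for Ang4. The treated mice averaged 3.87 ± 2.90 for Defa23 and the untreated mice 2.93 ± 3.20 (SD, n = 4 each). Within polypoid tissue the treated minus untreated difference of Defa23 was -0.09 in session 2 and 0.91 in session 3. That of Reg3b was -0.90 and 0.90. Reg3b and Reg3g were saturated on all arrays of the session 2 polyps, so the -0.90 does not measure a difference in RNA. The 5-ASA differences of both genes rest in part on those capped readings. With 2 mice a group these intervals leave room for changes of several fold in Defa23, Ang4, Reg3b and Reg3g, and a missed threshold does not show that the drug left the genes alone.

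**Figure D5:**
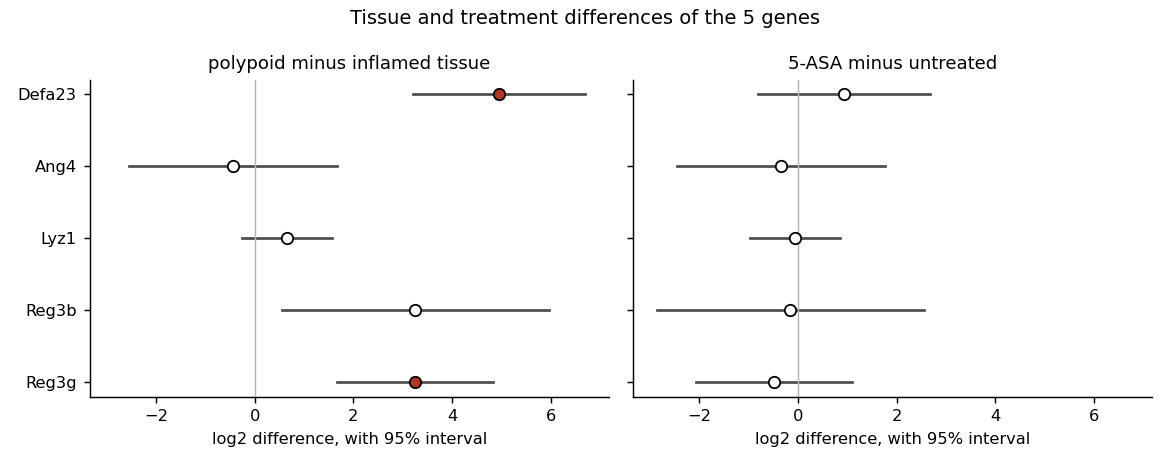
Difference of the 5 genes on the log2 scale with its 95% interval from limma, not adjusted for the number of genes, for polypoid minus inflamed tissue (left) and 5-ASA minus untreated (right). Filled points have an adjusted p below 0.05. Only Defa23 and Reg3g are filled, both on the left, and all 5 intervals on the right include 0.

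Relatives of the 5 genes were mostly flat. Of 28 listed, 24 were on the array and 14 tested, with none higher and 1 lower, and a median difference of -0.16. Over all genes, 5.94% were called in this comparison. The one that fell was Rnase6, an antimicrobial ribonuclease known from myeloid cells, by 1.96 (adjusted p = 0.0140). Lyzl4 differed by -0.21 (adjusted p = 0.318) and Defb3 by -0.19 (0.279), and the saturated Lyz2 gave no difference to report. Reg4, a lectin of secretory cells, was bright in both tissues at 3.91 to 5.76 and differed by -0.36 (0.661). The probes of Reg1, Reg3a and Reg3d stayed near background, and Reg2 differed by -0.10 (0.605).

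Other antimicrobial genes of the colon gave 4 higher and 2 lower of 28 tested, with a median of -0.10, beside 5.94% of all genes called. The sample channel alone gave 5 higher and 3 lower, beside 1005 of all 21302 genes called. S100a8 and S100a9, the subunits of calprotectin, which withholds metals from microbes, rose by 4.47 (adjusted p = 0.00626) and 4.32 (0.00241), and Lcn2, which binds bacterial siderophores, by 3.92 (0.0129). Cldn4, a tight junction protein, rose by 1.41 (0.0111). Nlrp6, a sensor in colon epithelium, fell by 3.07 (0.00878) and Slpi, a protease inhibitor of mucosal secretions, by 1.20 (0.0129). Of the listed genes of interleukin-22, STAT3 and bacterial signalling 33 were tested, 2 higher and 1 lower with a median of -0.13, again beside 5.94% of all genes. Socs3, the feedback inhibitor induced by STAT3, rose by 2.29 (0.00971) and the cytokine Il1b by 3.22 (0.0247). Il17rc, a subunit of the interleukin-17 receptor, fell by 1.58 (0.0172). Il22 differed by 0.90 (0.222), Stat3 by 0.07 (0.817) and Myd88 by -0.15 (0.787), none of them called. Il22 was well above background on 7 polypoid arrays and 0 inflamed arrays. Il23a differed by 0.82 (0.0588).

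Goblet and deep crypt secretory genes, which include cells that take the Paneth cells' place in the colon, gave 1 higher and 2 lower of 25 tested, with a median of -0.39. Over all genes, 5.94% were called between tissues. The sample channel alone gave 1 higher and 4 lower, with a median of -0.67, and 3 of these genes (Tff3, Clca1 and Zg16) were saturated on every inflamed array. Cd24a, a surface marker of Paneth and deep crypt cells, rose by 1.39 (adjusted p = 0.0413). The mucus protein gene Fcgbp fell by 0.99 (0.0263) and Bcas1 by 0.91 (0.0368), and Klk1 differed by -2.42 (0.0648). Cd24a was called in 1 of the 8 fits without a mouse, and Fcgbp and Bcas1 in 2 of 8 each, while S100a8 and S100a9 were called in all 8.

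Markers of other cells moved with the tissue too, and their counts stand beside 5.94% of all genes called between tissues. Of 10 neutrophil markers listed, 9 were on the array and 6 tested. Of these 6, 3 were higher (Retnlg, Mmp9 and Mmp8). The mean over the 6 was 0.69 to 1.46 in polyps and 0.02 to 0.09 in inflamed samples. In inflamed tissue Mmp8 cleared background on 0 of 7 arrays, Retnlg and Cxcr2 on 2, Csf3r and Mmp9 on 5 and Mpo on 7. Mmp8, Retnlg and Cxcr2 entered the test through the polypoid groups alone, so the filter favoured a higher call for them. The inflamed mean rests in part on dim spots. Of 8 colonocyte markers 4 were lower and 1 higher, with means of 1.58 to 3.62 in polyps and 3.68 to 4.28 in inflamed samples, and of 8 goblet markers 1 was lower as a ratio. Among the goblet markers Tff3, Clca1 and Zg16 were saturated on all 7 inflamed arrays, and in the sample channel alone Clca1 was lower by 3.14 (adjusted p = 0.0176) and Zg16 by 3.54 (0.0372). The 8 tested markers of small intestinal enterocytes gave 1 lower (Fabp2), with means of 0.08 to 0.50 in polyps and 0.46 to 0.70 in inflamed samples. Sis, Lct, Alpi and Apoa4 lay between -0.25 and 0.19 in every sample. The others reached higher values: Fabp2 ran from 0.145 to 3.21, Slc5a1 from 0.32 to 1.47, Anpep from 0.31 to 0.93 and Rbp2 from 0.025 to 0.53. The 8 pancreatic acinar markers had means of 0.11 to 0.18 in polyps and 0.14 to 0.39 in inflamed samples, and none passed. Smooth muscle gave 2 lower of 5 and B and plasma cells 1 lower of 6, while T cell, fibroblast and squamous markers gave none. The part of the neutrophil and colonocyte shifts in the results for Reg3g and Defa23 was not tested.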

How the data were processed

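RNA of 8 mice was hybridised to 15 arrays against a universal mouse reference. The deposited scanner files hold mean, background and processed signal intensity per spot, made with Agilent Feature Extraction 9.1.1.1 per the file headers. Their log10 ratio, as deposited, served only to find the scale of the deposited value table, which holds log2 sample over reference. The background correction and normalization of that table are not given in the sources used here.

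From the intensities, normexp (offset 50) and loess within each array gave log2 ratios, swapped arrays were turned, spots of a probe were averaged, a fit of mouse plus dye over the arrays gave 1 value a mouse, and limma 3.58.1 (R 4.3.3) was fitted over 4 groups with Benjamini-Hochberg adjustment over 21302 genes. A gene entered the fit if, in 1 group or more, no array had its probe's sample channel short of well above background, and the brightest probe stood for the gene. Probes were named by RefSeq accession (22864), by current name (10229) or by the array's own name (8081). The fit was tested on simulated data. The genes described and the lists were chosen with earlier results of these data known. From each list the text names the genes called between tissues over both arms (up to 8 by size in each direction) and, where fewer than 4 passed, those of smallest unadjusted p up to 4, plus the 5 genes closest to each gene by Pearson correlation. Other list genes, the alpha-defensins outside the lists and single markers were named after their values were seen. The number of mice limits the precision. Scan session, dye, background, filter and left-out mice were tried as alternatives.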

Additional observations from a re-analysis of the deposited data

Results flagged for a closer look

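In untreated polypoid replicate 2, Defa23 was at 5.14, below the other 3 polyps at 6.04 to 6.21. The gap was 0.840 of the range of the 4 polypoid samples, above Dixon's 95% critical value. In treated inflamed replicate 2, Defa23 was at 3.33, above the other inflamed samples at -0.02 to 0.36, a gap of 0.889 of the range. Of 12 sets of 4 samples tested these 2 passed, and chance gives about 5% of such sets.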

How the results depend on the processing

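Between tissues, over 17 alternatives beside left-out mice, Defa23 kept its direction in all 17 and its call in 14, Reg3g kept them in 17 and 10, Reg3b in 16 with 0 calls, Lyz1 in 17 with 0 and Ang4 in 14 with 0. Several of the 17 could not change the difference of Defa23, Reg3g, Reg3b or Lyz1. These were the filters on dim probes, the choice among a gene's probes, the keeping of flagged spots, the replicate block and limma's variance setting. Direction was fixed in advance there, so the counts overstate how robust it is. The counts for list genes below include such settings too. Leaving out scan session 2, which held the saturated arrays, was chosen after seeing the data.

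Agilent's processed signals gave Defa23 4.69 (adjusted p = 0.0612) and Reg3g 1.74 (0.109), so 0 of the 5 genes were called, and 83 genes in untreated mice. They gave Reg3b 0.083 for 5-ASA, and 1 gene called for 5-ASA in polypoid tissue. With the sample in Cy5 alone Reg3g was 3.89 (0.0882), 1 of the 5 was called, 392 genes were called between tissues, 14 in mice given 5-ASA and 14 in untreated mice. Ang4 was then -0.31 in mice given 5-ASA, and Lyz1 0.13 for 5-ASA. The authors' deposited table gave Reg3g 3.20 (0.158), 1 of the 5 called, 419 genes in mice given 5-ASA, 22 in untreated mice, and Reg3b 0.25 for 5-ASA. With no filter on dim probes Reg3g kept 3.25 (0.0585), 1 of the 5 was called, and 11 genes in untreated mice. The mean of a gene's probes gave Ang4 0.13. The sample channel alone gave 2 of the 5 called in mice given 5-ASA, and for 5-ASA Lyz1 0.40 and Reg3b 0.44.

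Without scan session 2, Defa23 was 4.67 (0.114), Reg3g 3.12 (0.2) and Ang4 0.19. Then 0 of the 5 and 3 other Paneth cell genes were called, with 310 genes between tissues and 0 in either arm, and for 5-ASA Lyz1 was 0.048 and Reg3b 0.29. With scan session as a fixed block, which leaves 1 residual degree of freedom, Defa23 was 5.76, Reg3g 1.13, Reg3b -0.22 and Ang4 2.76, and 0 genes of any list or arm were called. That fit gave Reg3b -0.86 in mice given 5-ASA, Ang4 1.44 in untreated mice, and for 5-ASA Reg3b 0.64 and Reg3g 0.0046. As a random block it gave Reg3g 3.04 (0.0526), 1 of the 5 called and 53 genes in untreated mice. Within session 3 the differences were 1.57 for Ang4, 1.39 for Lyz1, 0.41 for Reg3b and 1.16 for Reg3g. The cause of these shifts was not tested.

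The labels tie same-numbered mice by the number alone, several of them shared a scan session, and the correlations of their deviations, 0.034 to 0.363, were not all over 0.1. The replicate block gave Defa23 an adjusted p of 0.0233, Reg3g 0.0345 and Reg3b 0.111, with 1788 genes called between tissues, 1088 in mice given 5-ASA and 17 in untreated mice.

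Leaving out each mouse in turn gave 4.12 to 5.79 for Defa23 (called in 5 of 8 fits), 2.49 to 4.00 for Reg3g (called in 2 of 8, without untreated inflamed replicate 1 or 2), 2.01 to 4.51 for Reg3b and -1.37 to 0.48 for Ang4. Ang4 was -0.76 to 1.08 in mice given 5-ASA and -2.89 to 0.80 in untreated mice, and Lyz1 -0.089 to 1.58 in untreated mice. For 5-ASA, Ang4 was -1.27 to 0.58, Lyz1 -0.48 to 0.36, Reg3b -1.41 to 1.09 and Reg3g -1.24 to 0.26. Genes called numbered 125 to 1326 between tissues, 0 to 893 in mice given 5-ASA and 0 to 12 in untreated mice, with 0 to 2 of the 5 called between tissues, 0 to 1 in mice given 5-ASA, and 3 to 7 other Paneth cell genes. Of 649 values for the 26 named list genes, 531 kept direction and side of the threshold, 112 lost the call, 6 gained it and 0 reversed.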

Other observations

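The angiogenin probes ran together and apart from the alpha-defensins. The dimmer Ang4 probe followed Ang2 at r = 0.992, Ang3 at 0.977 and Itln1, a lectin, at 0.960 over the 8 samples, closer than it followed the other Ang4 probe (0.837). The brighter Ang4 probe, which was tested, followed Ang2 at 0.881, Ang3 at 0.903 and Itln1 at 0.709. Whether the angiogenin probes share targets was not tested. Ang2 was at 1.28 and 2.82 in treated polyps and 2.50 and 2.01 in untreated polyps, against 2.15 and 0.31 in treated inflamed tissue and 4.45 and 0.19 in untreated inflamed tissue. Itln1 was at 2.10 and 3.57 in treated polyps and 4.13 and 3.31 in untreated polyps, against 3.68 and 0.23 in treated inflamed tissue and 4.98 and -0.05 in untreated inflamed tissue. In both, the replicate 1 inflamed mice were high and the replicate 2 inflamed mice low. None of these genes was called between tissues, and the samples share arrays and sessions.

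Pla2g2a, a Paneth cell phospholipase, differed by -0.30 as a ratio (adjusted p = 0.508), while its sample channel was 3.42 higher and its reference channel 3.71 higher in polypoid tissue. Its spots were saturated on 7 of 8 polypoid arrays, so the ratio gives it no usable level. Wfdc18, a protease inhibitor family member, was saturated on all 8 polypoid arrays and differed by 0.25 as a ratio (adjusted p = 0.589) and by 5.22 in the sample channel (0.00267).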
